A study of Mus musculus with 17 samples.

Results

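The genes described here are 40 genes of monocytes, macrophages and Fc receptors, taken from a fixed list and found by symbol among the 50600 gene IDs of the count files. Each of the 40 symbols matched 1 gene ID, and all 40 passed the filter on low counts, which kept 21494 genes. They were measured by bulk mRNA sequencing of 14 separate tumors from a mouse model of rhabdoid tumor and of 3 healthy brains, all of the strain C57BL/6J. The tumors carried the genotype SMARCB1 -/-, which removes a subunit of a chromatin remodeller, SWI/SNF, and the brains were wild type (WT). There were 3 CNS tumors titled SHH, 4 CNS tumors titled Myc, 4 tumors titled Extracranial and 3 tumors grown as syngeneic grafts in the flank. These are called SHH tumors, Myc tumors, extracranial tumors and grafts below, and single libraries keep the number of their label. The labels do not give the age of the mice, how Smarcb1 was deleted, the organ of the extracranial tumors, or whether the grafts came from 1 parent tumor, and tumor site and subtype change together between most groups.

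Macrophages are phagocytes that settle in every tissue, in the brain mainly as microglia, and that can also arise from blood monocytes. Their survival depends on the CSF1 receptor, and their gene programme is set up by the transcription factor PU.1, encoded by Spi1, with partners such as IRF8. Activating Fc receptors bind the constant part of antibodies and signal through the adaptor encoded by Fcer1g, while the receptor encoded by Fcgr2b inhibits. In bulk tissue, fewer cells of a type and less RNA per cell cannot be told apart.

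Expression is given as CPM, the count scaled to a standard library size after TMM normalization. Total counts lay between 36951431 and 96214427 in grafts, 22491998 and 52956537 in extracranial tumors, 18685672 and 114338058 in Myc tumors, and 35662656 and 71390917 in SHH tumors, against 103095016 to 130835711 in healthy brains. Smarcb1 lay between 2.52 and 33.3 CPM in the 14 tumors, against 119.02 to 132 CPM in the 3 brains, so the groups did not overlap. The leukocyte gene Ptprc lay between 8.39 and 469.6 CPM in the tumors, against 2.08 to 3.59 CPM in the brains. Extracranial tumor 4 stood apart from the rest of its group, and Healthy brain 1 from the other brains. Adjusted p-values are from edgeR's quasi-likelihood test over all 21494 genes. Log2 fold changes carry an approximate SE, the absolute log2 fold change divided by the square root of that test's F statistic. Means carry the SD between libraries, and a gene is said to have risen or to be called at an adjusted p under 0.05.

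Upstream sequences of 30 of the 40 genes were found in the RefSeq promoter table (GRCm38.p6), and the 250 bases before the start site were searched on both strands for GAGGAA, the core of the motif bound by PU.1. It was present in 17 of these 30 genes (56.7%), against 6252 of all 27025 genes in the table (23.1%). The longer form GAGGAAGT, which contains it, was present in 3 of 30 (10%) and 2.44% of all genes. TCACGTG, the motif of the lysosomal factors TFEB and MITF, was found in 0 of 30 and 3.15% of all genes. These are counts of letters in a window and not of binding. The last 120 bases before the start site are shown for some genes that hold the motif and whose levels are compared below. They are the integrin gene Itgam, the Fc receptor genes Fcgr1 and Fcgr4 and the lipid receptor gene Trem2. Other genes compared below, such as Fcgr2b, Lyz2, Irf8, Mpeg1 and Cybb, had no GAGGAA in the 250 bases and are not shown. Capitals mark GAGGAA or its complement TTCCTC, and each sequence runs 5′ to 3′ towards its gene.
Itgam (chr7:128062520-128062639, plus strand): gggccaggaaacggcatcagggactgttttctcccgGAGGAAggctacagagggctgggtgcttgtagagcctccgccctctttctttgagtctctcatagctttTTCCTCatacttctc
Fcgr1 (chr3:96293970-96294089, minus strand): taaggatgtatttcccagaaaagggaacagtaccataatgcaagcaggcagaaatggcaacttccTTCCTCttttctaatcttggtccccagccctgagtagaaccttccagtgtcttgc
Fcgr4 (chr1:171018806-171018925, plus strand): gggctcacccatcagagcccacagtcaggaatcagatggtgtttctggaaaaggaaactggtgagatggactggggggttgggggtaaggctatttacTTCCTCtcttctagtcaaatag
Trem2 (chr17:48346281-48346400, plus strand): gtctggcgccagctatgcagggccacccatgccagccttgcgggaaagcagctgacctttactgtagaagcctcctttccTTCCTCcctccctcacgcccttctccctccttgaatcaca
The Itgam sequence held the motif at 84 and 15 bases before the start site, Fcgr1 at 55, Trem2 at 40 and Fcgr4 at 22, counted at the first base of the motif. The Fcgr4 motif was part of the longer GAGGAAGT.

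Most of the 40 genes were higher in every tumor group than in brain, and the groups were graded, with SHH tumors nearest to brain and grafts farthest from it. The median log2 fold change of the 40 genes over healthy brain was 2.10 in SHH tumors, 4.77 in Myc tumors, 5.49 in extracranial tumors and 6.68 in grafts, while the median over all tested genes was -0.02, -0.01, 0.05 and -0.16. In SHH tumors 18 of the 40 genes rose and 0 fell, in a comparison where 2.44% of all genes were called higher and 1.94% lower. In Myc tumors 35 rose and 0 fell, where 25.3% of all genes were called higher and 26.8% lower. In extracranial tumors 38 rose and 0 fell, where 26.1% of all genes were called higher and 26.1% lower, and in grafts 37 rose and 0 fell, where 24.9% were called higher and 30.4% lower. Spp1 and Lyve1 did not pass in any of these 4 comparisons, and Gpnmb passed only in extracranial tumors. Since the 4 comparisons share the same 3 brains, their counts are not independent of each other.

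**Figure D1:**
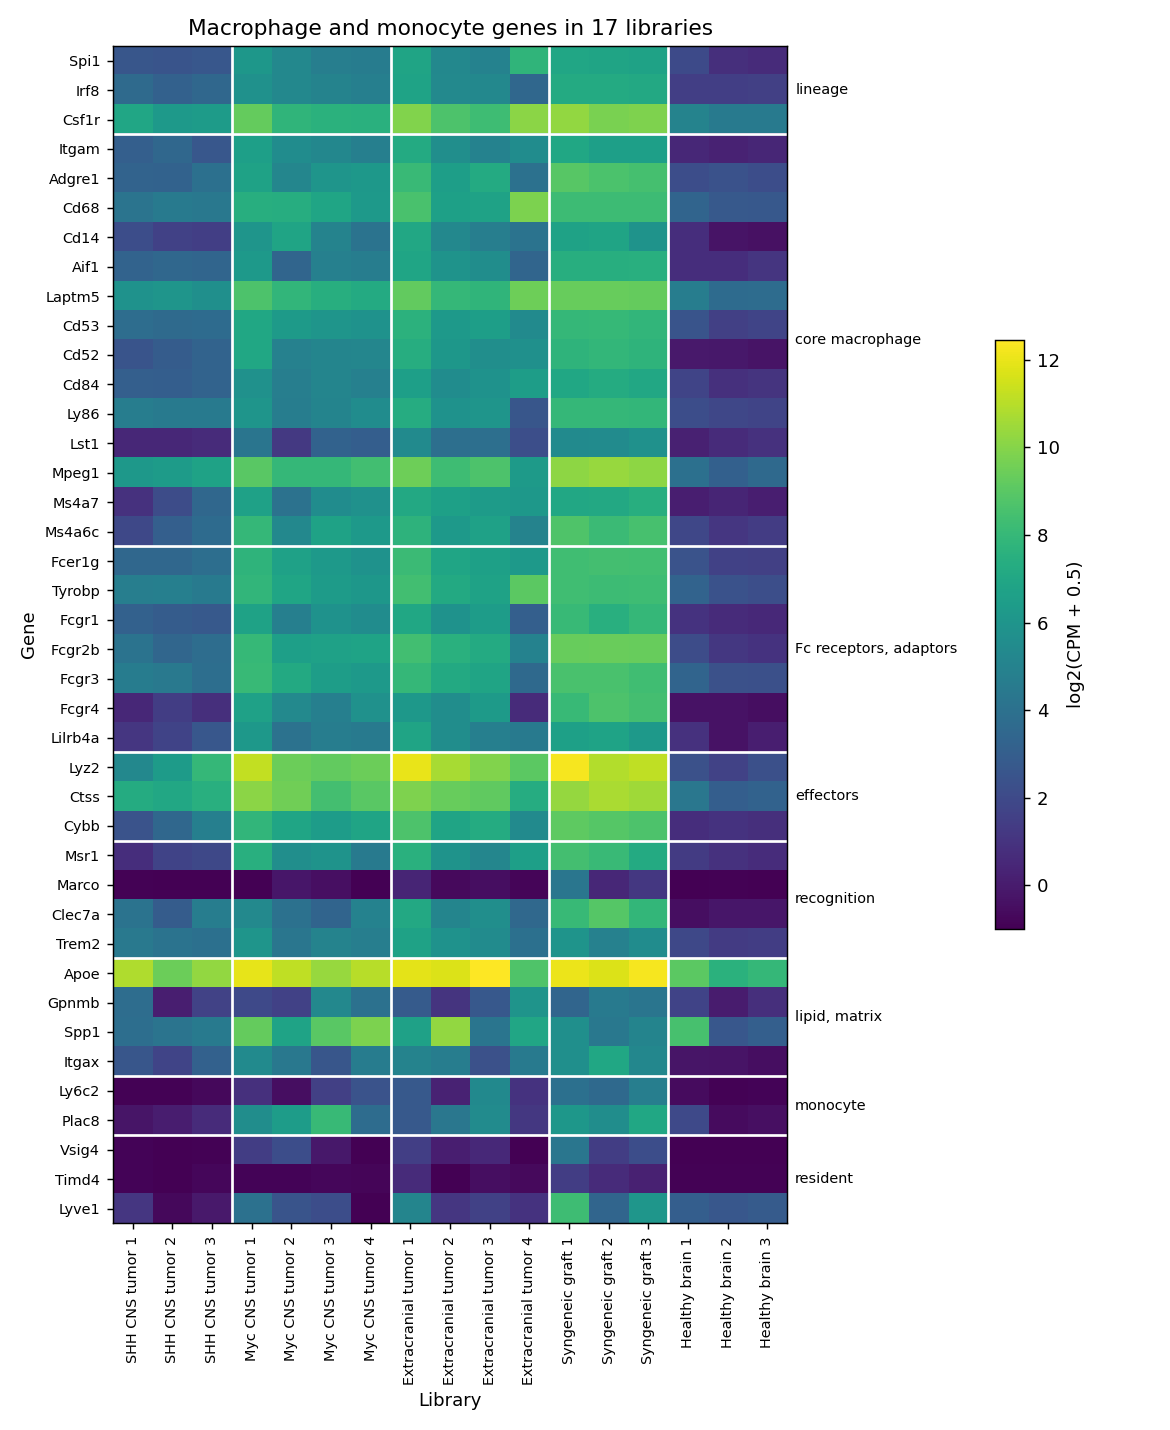
Levels of the 40 genes in each of the 17 libraries, as log2(CPM + 0.5), with genes grouped by role and libraries by group. Grafts (columns before the brains) are the brightest block and brains the darkest; Extracranial tumor 4 is bright in Spi1, Csf1r, Cd68, Laptm5, Tyrobp and Gpnmb but dark in most other rows.

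**Figure D2:**
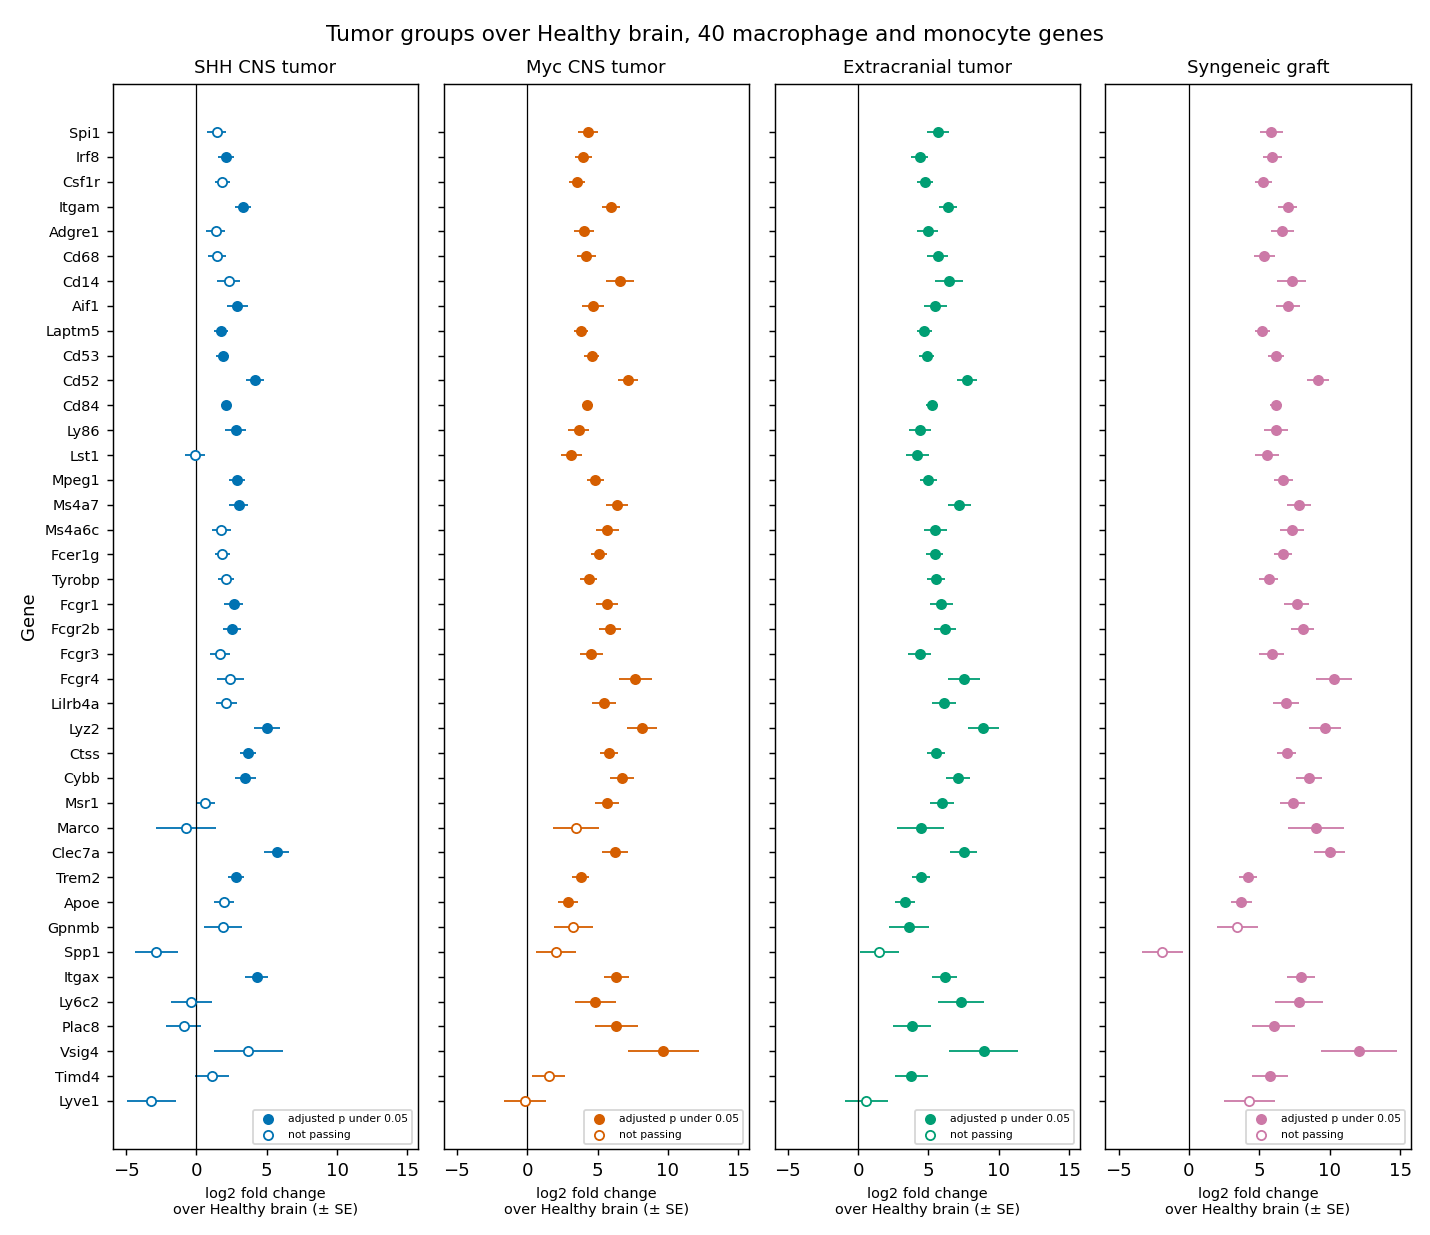
Log2 fold change of each gene over healthy brain in the 4 tumor groups, with SE; filled points have an adjusted p under 0.05. The points move to the right from SHH tumors (median 2.10) to grafts (median 6.68), and Spp1 and Lyve1 are open in all 4 panels.

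The number of calls in SHH tumors changed with single libraries. With 1 of the 6 libraries left out, between 1 and 11 of the 40 genes were called, with the lowest counts without Healthy brain 3 (1), Healthy brain 2 (3) and SHH CNS tumor 3 (5), and 10 without Healthy brain 1, 11 without SHH CNS tumor 1 and 11 without SHH CNS tumor 2. Of the 18 calls, 17 were lost in at least 1 of these settings, and only the call of Cd52 remained in all 6 (adjusted p = 0.00769 to 0.0490). In CPM, all 3 SHH tumors lay above all 3 brains in 30 of the 40 genes, against 15.7% of all genes tested. The reverse was seen for Lyve1 alone, against 20.7% of all genes. In the other comparisons with brain, leaving out a library cost the call of Ly6c2 in Myc tumors (adjusted p = 0.0540 without Healthy brain 2 and 0.0547 without Healthy brain 3). In extracranial tumors it cost those of Gpnmb, Marco, Plac8 and Timd4, and without Extracranial tumor 4 the count there was 37. In grafts none of the 37 calls was lost in any alternative, these leave-outs included.

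The size of a change also rested on single libraries. Leaving out 1 library moved the fold change over brain by more than 1.5 times for 19 of the 38 genes called in extracranial tumors, 11 of 35 in Myc tumors, 9 of 37 in grafts and 3 of 18 in SHH tumors. Without Extracranial tumor 1, 14 genes had a smaller change in extracranial tumors, such as Lyz2 (8.09 log2 units), Itgam (5.68) and Adgre1 (4.32). Without Myc CNS tumor 1, 6 genes had a smaller change in Myc tumors, such as Lyz2 (7.44), Lilrb4a (4.80) and Msr1 (4.85). Without SHH CNS tumor 3, the change in SHH tumors was 3.98 log2 units for Lyz2, 2.59 for Cybb and 1.96 for Ms4a7. Without Healthy brain 1, Spi1, Cd14, Lilrb4a, Ly6c2 and Plac8 had a larger change in Myc tumors, extracranial tumors and grafts. For Lilrb4a it was 7.69 log2 units in grafts, 6.88 in extracranial tumors and 6.21 in Myc tumors. Without Syngeneic graft 1 the change in grafts was 6.59 log2 units for Marco and 5.14 for Timd4. Without Syngeneic graft 2 it was 7.21 for Itgax.

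All 3 lineage genes rose in Myc tumors, extracranial tumors and grafts, and Irf8 alone rose in SHH tumors. Spi1, encoding PU.1, was measured at 5.51, 5.22 and 5.67 CPM in SHH tumors, 69.2, 38.9, 26.6 and 24.2 CPM in Myc tumors, 115, 37.97, 30.3 and 224 CPM in extracranial tumors and 125, 115 and 106 CPM in grafts, against 3.62, 1.27 and 1.07 CPM in healthy brains. Each tumor lay above each brain, with the highest value in Extracranial tumor 4. Its log2 fold change over brain was 5.86 ± 0.80 (adjusted p = 5.21e-05) in grafts, 5.68 ± 0.78 (adjusted p = 6.15e-05) in extracranial tumors and 4.32 ± 0.73 (adjusted p = 0.000299) in Myc tumors, while in SHH tumors it was 1.46 ± 0.67 (adjusted p = 0.218). Without Extracranial tumor 4 the log2 fold change of Spi1 in extracranial tumors was 4.90. Without Healthy brain 1, which had the highest Spi1 of the brains, it was 6.62 in grafts, 6.44 in extracranial tumors and 5.08 in Myc tumors. Csf1r, the receptor for CSF1 and IL-34, was measured at 125, 73.4 and 82.7 CPM in SHH tumors, 606, 226, 194 and 182 CPM in Myc tumors, 957, 412, 307 and 1102 CPM in extracranial tumors and 1252, 871 and 915 CPM in grafts, against 32.3, 22.9 and 22.3 CPM in healthy brains. Tumors and brains again did not overlap, and Myc CNS tumor 1 and Extracranial tumors 1 and 4 stood well above the rest of their groups. Csf1r rose by 5.29 ± 0.61 in grafts, 4.75 ± 0.58 in extracranial tumors and 3.55 ± 0.55 in Myc tumors on the log2 scale, while 1.86 ± 0.53 in SHH tumors missed the threshold (adjusted p = 0.0596). Irf8, an interferon regulatory factor of monocytes and dendritic cells, was measured at 11.98, 8.70 and 10.8 CPM in SHH tumors, 54.4, 38.7, 32.1 and 27.1 CPM in Myc tumors, 113, 39.1, 38.8 and 10.8 CPM in extracranial tumors and 150.1, 147 and 138 CPM in grafts, against 2.33, 2.35 and 2.47 CPM in healthy brains. Extracranial tumor 4 was within the range of the SHH tumors for this gene although it had the highest Spi1 of all. Irf8 rose in SHH tumors (log2 fold change 2.14 ± 0.56, adjusted p = 0.0462), a call lost under each of the 6 leave-outs (adjusted p = 0.0691 to 0.160). Csf1r overlaps a gene on the opposite strand, and an Irf8 readthrough model exists, so small parts of these counts are uncertain.

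The 14 core macrophage genes rose without exception in Myc tumors, extracranial tumors and grafts, and 9 of them rose in SHH tumors. The median log2 fold change of these 14 over brain was 6.66 in grafts, 5.37 in extracranial tumors, 4.64 in Myc tumors and 2.20 in SHH tumors. Itgam, encoding the CD11b chain of complement receptor 3, was measured at 7.86, 10.8 and 5.74 CPM in SHH tumors, 96.9, 45.7, 37.1 and 27.9 CPM in Myc tumors, 147, 50.1, 30.9 and 46.2 CPM in extracranial tumors and 127, 95.9 and 96.8 CPM in grafts, against 0.913, 0.708 and 0.859 CPM in healthy brains. No tumor overlapped with a brain, and the rise was 7.01 ± 0.68 (adjusted p = 4.62e-06) in grafts, 6.37 ± 0.65 (adjusted p = 7.45e-06) in extracranial tumors, 5.97 ± 0.64 (adjusted p = 1.08e-05) in Myc tumors and 3.30 ± 0.57 (adjusted p = 0.0101) in SHH tumors. The call in SHH tumors was lost without Healthy brain 2 (adjusted p = 0.0592) or Healthy brain 3 (0.0624).

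Adgre1, which encodes the F4/80 antigen of mature macrophages, was measured at 9.14, 8.98 and 15.1 CPM in SHH tumors, 107, 34.99, 64.5 and 70.7 CPM in Myc tumors, 274, 93.6, 150.2 and 15.5 CPM in extracranial tumors and 502, 405 and 359.6 CPM in grafts, against 4.08, 4.80 and 3.99 CPM in healthy brains. Its grafts lay above every other library, and Extracranial tumor 4 lay near the SHH tumors. Its rise over brain was 6.62 ± 0.82 (adjusted p = 2.6e-05) in grafts and 4.96 ± 0.75 (adjusted p = 0.000124) in extracranial tumors, and 1.37 ± 0.66 (adjusted p = 0.243) in SHH tumors did not pass. Cd68, a glycoprotein of lysosomes, was measured at 17.7, 21.98 and 20.4 CPM in SHH tumors, 169.6, 167, 121 and 76.8 CPM in Myc tumors, 377, 101, 108 and 895 CPM in extracranial tumors and 299, 299 and 301 CPM in grafts, against 9.59, 6.33 and 5.97 CPM in healthy brains. Here Extracranial tumor 4 was the highest library of all 17, although it had the lowest Adgre1 of its group. Cd68 rose by 5.36 ± 0.74 in grafts and 5.67 ± 0.74 in extracranial tumors on the log2 scale, and the 3 grafts were close together. Without Extracranial tumor 4 the extracranial mean fell to 195 CPM, below every graft, and the log2 fold change over brain was 4.70.

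Cd52, a small surface glycoprotein of leukocytes, had 5.10, 7.15 and 9.06 CPM in SHH tumors, against 0.453, 0.408 and 0.318 CPM in brains, and its rise of 4.17 ± 0.63 (adjusted p = 0.00532) was the one call of that comparison that remained with every library left out in turn. In grafts it reached 212, 243 and 214 CPM, a rise of 9.14 ± 0.78 (adjusted p = 2.11e-06). Part of its locus overlaps Crybg2 on the other strand. Mpeg1, encoding the pore-forming perforin-2, averaged 1221 ± 108 CPM in grafts, 375 ± 258 CPM in extracranial tumors, 337 ± 124 CPM in Myc tumors and 86.8 ± 17.5 CPM in SHH tumors, against 11.8 ± 3.41 CPM in brains. Laptm5, a lysosomal protein of blood cells, rose by 5.21 ± 0.54 log2 units in grafts and 1.76 ± 0.47 in SHH tumors, and Cd53, a leukocyte tetraspanin, by 6.16 ± 0.56 and 1.88 ± 0.47. Cd14, a coreceptor for lipopolysaccharide, had 64.1, 116, 31.5 and 16.96 CPM in Myc tumors, against 1.22, 0.320 and 0.255 CPM in brains. Ms4a7, a membrane protein of macrophages, had 1.37, 3.81 and 10.8 CPM in SHH tumors, against 0.596, 0.806 and 0.589 CPM in brains. Lst1, a gene of leukocytes in the MHC region, was the exception in SHH tumors, at 0.902, 0.917 and 1.09 CPM, against 0.659, 1.07 and 1.38 CPM in brains, values that overlapped (log2 fold change -0.09 ± 0.73, adjusted p = 0.96). Ms4a6c, a relative of Ms4a7, rose by 7.32 ± 0.88 log2 units in grafts and 5.68 ± 0.81 in Myc tumors, and close relatives such as Ms4a6b and Ms4a6d could share reads with it. In Myc tumors Lst1 had 18.4, 1.88, 8.75 and 7.58 CPM and rose (log2 fold change 3.14 ± 0.76, adjusted p = 0.00364).

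All 7 Fc receptor, adaptor and inhibitory receptor genes rose in Myc tumors, extracranial tumors and grafts, and 2 of the 7, Fcgr1 and Fcgr2b, in SHH tumors. Fcgr1, encoding the high-affinity IgG receptor, was measured at 8.50, 6.98 and 6.16 CPM in SHH tumors, 107, 27.4, 57.6 and 45.6 CPM in Myc tumors, 127, 57.6, 86.4 and 7.82 CPM in extracranial tumors and 263, 182 and 247 CPM in grafts, against 1.43, 1.05 and 0.962 CPM in healthy brains. The low-affinity activating receptor gene Fcgr4 was measured at 0.902, 2.23 and 1.25 CPM in SHH tumors, 103, 39.2, 27.7 and 54.4 CPM in Myc tumors, 71.9, 48.2, 80.9 and 1.05 CPM in extracranial tumors and 263, 414 and 346 CPM in grafts, against 0.302, 0.301 and 0.207 CPM in healthy brains. Extracranial tumor 4 was within the range of the SHH tumors for Fcgr1 and Fcgr4, and below all of them for Fcgr3, with 11.7 CPM. Fcgr4 rose by 10.30 ± 1.29 in grafts, 7.54 ± 1.15 in extracranial tumors and 7.69 ± 1.15 in Myc tumors on the log2 scale, the steepest of the 7 in each of these groups, and its 2.43 ± 0.94 in SHH tumors did not pass (adjusted p = 0.15).

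Fcgr2b, the inhibitory IgG receptor gene, was measured at 17.1, 10.5 and 13.7 CPM in SHH tumors, 259.6, 94.96, 104 and 109 CPM in Myc tumors, 328, 188, 147 and 30.6 CPM in extracranial tumors and 637, 659 and 637 CPM in grafts, against 3.94, 1.77 and 1.49 CPM in healthy brains. The 3 grafts were close together and lay above all other libraries, while Extracranial tumor 4 lay below the other tumors of its group. Its log2 fold change was 8.07 ± 0.84 (adjusted p = 6.86e-06) in grafts and 2.52 ± 0.65 (adjusted p = 0.0445) in SHH tumors. In SHH tumors the calls of Fcgr1 and Fcgr2b were lost under each leave-out (0.0793 to 0.178 for Fcgr1 and 0.0557 to 0.179 for Fcgr2b). Fcgr3, another activating receptor, had 24.2, 21.4 and 14.2 CPM in SHH tumors, against 9.67, 4.54 and 4.31 CPM in brains, and did not pass there (log2 fold change 1.69 ± 0.74, adjusted p = 0.197). Fcgr2b and Fcgr3 are similar in sequence in their extracellular part, and how reads that match both were counted is not given in the sources used here.

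The adaptor genes parted in Extracranial tumor 4. Fcer1g, the common gamma chain, had 284, 119, 100.3 and 75.5 CPM in the extracranial tumors, against 5.02, 2.48 and 2.41 CPM in brains. Tyrobp, the adaptor DAP12 that serves TREM2 and related receptors, had 334, 143, 108 and 534 CPM in the same tumors, against 9.27, 4.66 and 4.28 CPM in brains. So the tumor with the lowest Fcer1g of its group had the highest Tyrobp of all 17 libraries. Lilrb4a, an inhibitory receptor of myeloid cells, rose by 6.92 ± 0.92 in grafts, 6.11 ± 0.88 in extracranial tumors and 5.44 ± 0.85 in Myc tumors on the log2 scale. Its locus is shared with overlapping gene models, so its count is uncertain.

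**Figure D3:**
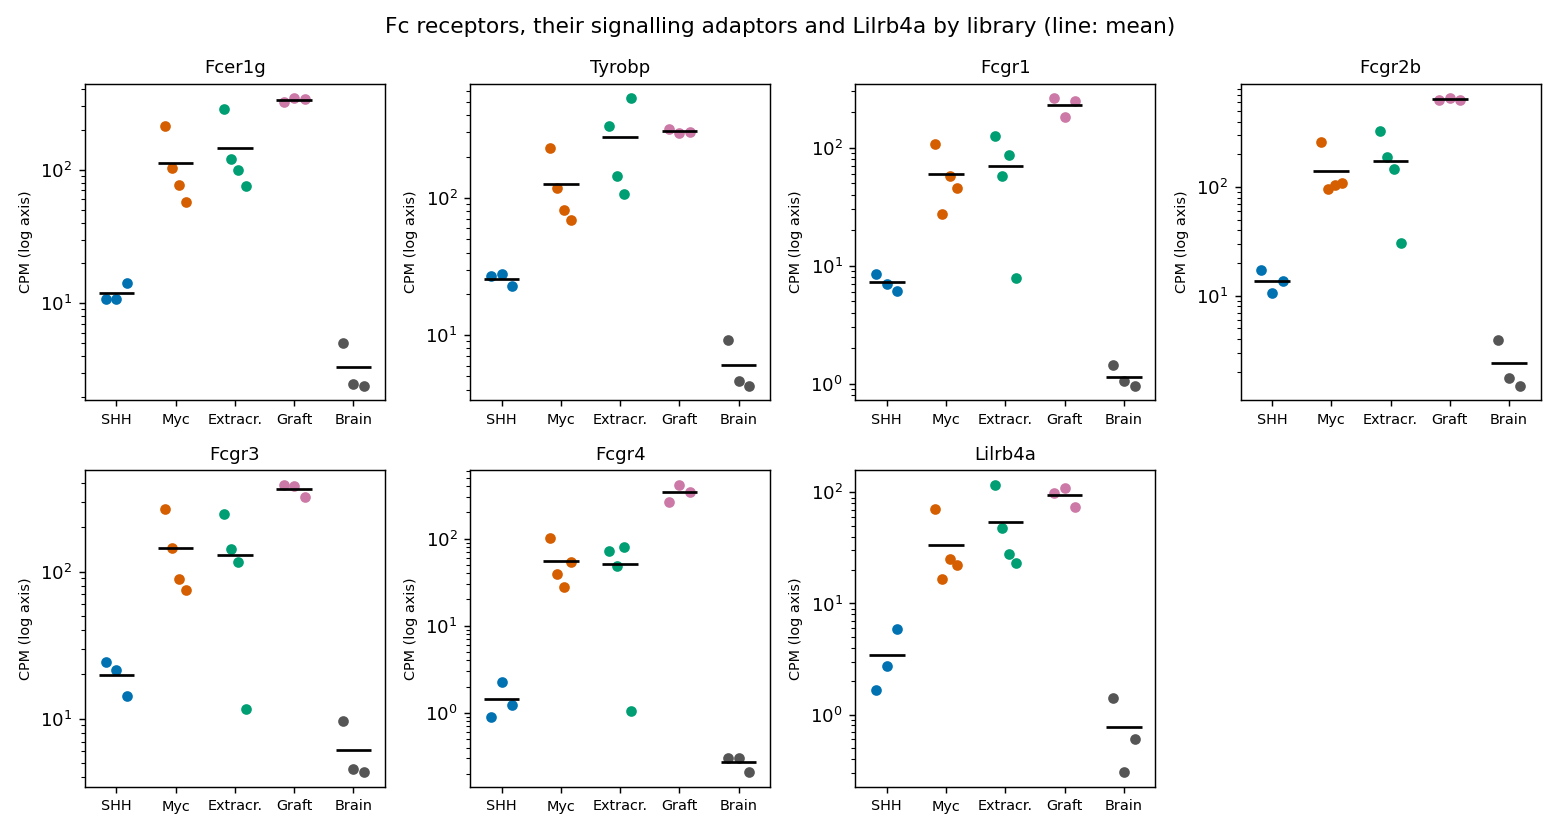
CPM of the 4 IgG receptor genes, the adaptor genes Fcer1g and Tyrobp and the inhibitory receptor gene Lilrb4a in each library, on log axes, with group means as lines. Grafts lie above brains in all 7 panels, and 1 extracranial tumor, number 4, lies far below its group for Fcgr1, Fcgr3 and Fcgr4 (7.82, 11.7 and 1.05 CPM) but not for Tyrobp (534 CPM).

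The effector genes rose in all 4 tumor groups. Lyz2, encoding lysozyme M of macrophages and neutrophils, was measured at 38.2, 81.5 and 249.8 CPM in SHH tumors, 2370.04, 687, 593 and 677 CPM in Myc tumors, 4068, 1622, 949 and 530.4 CPM in extracranial tumors and 5000.1, 1891 and 2291 CPM in grafts, against 4.49, 2.59 and 4.33 CPM in healthy brains. The range between libraries of 1 group was wide, and Myc CNS tumor 1, Extracranial tumor 1 and Syngeneic graft 1 led their groups. Lyz2 rose by 9.65 ± 1.14 log2 units (adjusted p = 1.77e-05) in grafts, 8.88 ± 1.10 (adjusted p = 2.72e-05) in extracranial tumors, 8.15 ± 1.07 (adjusted p = 4.42e-05) in Myc tumors and 5.02 ± 0.93 (adjusted p = 0.0127) in SHH tumors. The near-identical gene Lyz1, with up to 133 CPM in Extracranial tumor 1, could share some of its reads. Ctss, the lysosomal protease cathepsin S, was measured at 154, 131 and 179 CPM in SHH tumors, 1102, 728, 342 and 509 CPM in Myc tumors, 927, 628, 581 and 162 CPM in extracranial tumors and 1257, 1730.5 and 1494 CPM in grafts, against 19.8, 7.65 and 8.89 CPM in healthy brains. Its SHH tumors were far above brain (log2 fold change 3.68 ± 0.59, adjusted p = 0.00757), and Extracranial tumor 4 was within their range. Cybb, the catalytic subunit of the phagocyte NADPH oxidase, had 4.87, 10.95 and 27.8 CPM in SHH tumors, against 1.21, 1.47 and 1.26 CPM in brains, and rose there by 3.47 ± 0.74 log2 units (adjusted p = 0.0208), in grafts by 8.53 ± 0.93 log2 units (adjusted p = 9.56e-06). The SHH calls of Ctss and Lyz2 were lost without Healthy brain 3 (adjusted p = 0.0572 and 0.0733), that of Lyz2 also without SHH CNS tumor 3 or Healthy brain 2 (0.0524 and 0.0698), and that of Cybb without any 1 brain or SHH CNS tumor 3 (0.0710 to 0.103).

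The recognition receptors differed in where they were seen. Clec7a, encoding Dectin-1, the receptor for fungal beta-glucan, was measured at 17.03, 7.17 and 25.8 CPM in SHH tumors, 40.3, 15.4, 9.70 and 30.2 CPM in Myc tumors, 138, 34.6, 49.02 and 11.2 CPM in extracranial tumors and 269, 469.97 and 241 CPM in grafts, against 0.199, 0.369 and 0.390 CPM in healthy brains. Its level in every SHH tumor was far above every brain, the largest rise of the 40 genes in that group (log2 fold change 5.70 ± 0.90, adjusted p = 0.00663), and in grafts it rose by 9.99 ± 1.08 log2 units (adjusted p = 8.74e-06). The SHH call was lost without Healthy brain 3 alone (adjusted p = 0.0504). Msr1, a class A scavenger receptor, had 1.18, 2.77 and 3.23 CPM in SHH tumors, which overlapped with 2.06, 1.39 and 1.15 CPM in brains (log2 fold change 0.65 ± 0.70, adjusted p = 0.626). In Myc tumors Msr1 had 180.02, 49.9, 58.9 and 22.7 CPM and rose by 5.66 ± 0.83 log2 units (adjusted p = 0.000103).

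Trem2, a receptor for lipids and for lipoproteins such as the product of Apoe, was measured at 21.3, 17.02 and 15.2 CPM in SHH tumors, 63.5, 19.03, 31.95 and 26.9 CPM in Myc tumors, 108, 57.5, 44.4 and 15.1 CPM in extracranial tumors and 62.4, 29.6 and 45.3 CPM in grafts, against 3.29, 2.01 and 2.27 CPM in healthy brains. It rose in all 4 groups, by 4.18 ± 0.63 in grafts, 4.48 ± 0.63 in extracranial tumors, 3.81 ± 0.61 in Myc tumors and 2.82 ± 0.60 in SHH tumors (adjusted p = 0.000116, 7.12e-05, 0.000199 and 0.0198). The call in SHH tumors was lost without Healthy brain 2, Healthy brain 3 or SHH CNS tumor 3 (0.0959, 0.102 and 0.0595). Marco, a scavenger receptor of marginal zone and alveolar macrophages, stayed below 1 CPM outside the grafts, where it had 18.9, 0.903 and 1.76 CPM. The 3 SHH tumors together held 1 read of it, and 2 of the 4 Myc tumors held none. Its rise over brain was 9.03 ± 1.97 (adjusted p = 0.00162) in grafts, where the brains had 0, 0.0291 and 0.00795 CPM, and 4.45 ± 1.67 (adjusted p = 0.0372) in extracranial tumors, where the call was lost without Extracranial tumor 1 (adjusted p = 0.104) or any 1 brain (0.0513 to 0.110).

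Of the lipid and matrix genes, Itgax rose in all 4 tumor groups, Apoe in 3, Gpnmb in 1 and Spp1 in none. Apoe, the lipid carrier that astrocytes also make, was measured at 1826, 694 and 1246 CPM in SHH tumors, 3890.4, 2304, 1328 and 2075 CPM in Myc tumors, 3753, 3442, 5589 and 423 CPM in extracranial tumors and 4259, 3463 and 4991 CPM in grafts, against 531, 192 and 248 CPM in healthy brains. It made up between 7.58% and 71.2% of the summed CPM of the 40 genes in a library. Extracranial tumor 4 was below every other tumor and within the range of the brains. Apoe rose by 3.71 ± 0.74 log2 units (adjusted p = 0.000885) in grafts, 3.35 ± 0.71 (adjusted p = 0.00149) in extracranial tumors and 2.89 ± 0.70 (adjusted p = 0.00347) in Myc tumors, while 1.96 ± 0.69 (adjusted p = 0.116) in SHH tumors did not pass although all 3 SHH tumors lay above the brains. Itgax, encoding CD11c, had 5.49, 2.91 and 8.65 CPM in SHH tumors, against 0.341, 0.311 and 0.215 CPM in brains, and rose by 4.29 ± 0.83 log2 units (adjusted p = 0.015) in SHH tumors and 7.94 ± 0.98 (adjusted p = 2.33e-05) in grafts. The SHH call of Itgax was lost without Healthy brain 2, Healthy brain 3 or SHH CNS tumor 3 (adjusted p = 0.0698, 0.0897 and 0.0573).

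Spp1, the secreted phosphoprotein osteopontin, also made by bone and tumor cells, was measured at 13.8, 17.4 and 22.9 CPM in SHH tumors, 607, 110.3, 518 and 896 CPM in Myc tumors, 105, 1214, 18.2 and 123 CPM in extracranial tumors and 51.99, 20.3 and 32.6 CPM in grafts, against 372, 5.69 and 7.99 CPM in healthy brains. Healthy brain 1 lay above every SHH tumor and every graft, so brains overlapped with tumors of every group, and none of the 4 comparisons passed. Healthy brain 1 also had 74.1 CPM of Ctsk and 24.4 CPM of Acp5, genes of bone resorption, against at most 4.32 and 0.291 CPM in the other brains, and the part of these genes' cells in its Spp1 value was not tested. Gpnmb, a glycoprotein of lipid-laden macrophages and osteoclasts, was measured at 13.7, 0.588 and 2.62 CPM in SHH tumors, 3.39, 2.56, 38.3 and 15.7 CPM in Myc tumors, 6.88, 1.54, 6.09 and 60.8 CPM in extracranial tumors and 9.99, 22.1 and 18.3 CPM in grafts, against 2.80, 0.534 and 1.28 CPM in healthy brains. Its call in extracranial tumors (log2 fold change 3.61 ± 1.41, adjusted p = 0.0444) was lost without Extracranial tumor 4 (adjusted p = 0.256), which held the highest value of all libraries, without any 1 brain (0.0603 to 0.133), with the 2 groups fitted alone (0.0714) and with every gene with a count kept (0.0746), among other alternatives.

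The monocyte genes did not pass in SHH tumors and rose in the other groups. Ly6c2, a surface antigen of inflammatory monocytes, was measured at 0.0258, 0.0235 and 0.113 CPM in SHH tumors, 1.31, 0.209, 2.39 and 4.95 CPM in Myc tumors, 6.24, 0.701, 41.3 and 1.46 CPM in extracranial tumors and 14.99, 11.6 and 26.3 CPM in grafts, against 0.159, 0.0194 and 0.0477 CPM in healthy brains. It rose in grafts (log2 fold change 7.82 ± 1.70, adjusted p = 0.00157) and in extracranial tumors (log2 fold change 7.32 ± 1.65, adjusted p = 0.00219), where Extracranial tumor 3 alone was above every graft and the log2 fold change without it was 5.16. Without Healthy brain 1 the log2 fold changes of Ly6c2 were 8.93 in grafts and 8.42 in extracranial tumors. Ly6c1, which endothelial cells express, is nearly identical in sequence and could share reads with it. Plac8, a gene of monocytes and other blood cells, was measured at 0.335, 0.564 and 1.09 CPM in SHH tumors, 48.2, 86.98, 262 and 13.2 CPM in Myc tumors, 6.34, 19.5, 44.2 and 1.80 CPM in extracranial tumors and 68.1, 47.6 and 128 CPM in grafts, against 3.38, 0.165 and 0.231 CPM in healthy brains. Myc CNS tumor 3 was the highest, and Healthy brain 1 was far above the other brains. Plac8 rose in Myc tumors (log2 fold change 6.34 ± 1.51, adjusted p = 0.00328) and grafts (log2 fold change 6.01 ± 1.51, adjusted p = 0.0041). Without Healthy brain 1 these log2 fold changes were 9.0 in Myc tumors and 8.66 in grafts. Without Myc CNS tumor 3 that of Myc tumors was 5.28. Its call in extracranial tumors (3.83 ± 1.33 (adjusted p = 0.0263), and a log2 fold change of 6.49 without Healthy brain 1) was lost without Extracranial tumor 3, Healthy brain 2 or Healthy brain 3 (adjusted p = 0.0684, 0.0833 and 0.0887), with the 2 groups fitted alone (0.0825) and with every gene with a count kept (0.0516).

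Of the 3 genes of resident macrophages, Vsig4 rose in Myc tumors, extracranial tumors and grafts, and Timd4 rose in extracranial tumors and grafts. Lyve1 did not pass over brain in any group. Vsig4, a complement receptor of tissue macrophages, was measured at 0.0515, 0 and 0.0226 CPM in SHH tumors, 2.24, 4.02, 0.402 and 0 CPM in Myc tumors, 2.29, 0.603, 0.984 and 0 CPM in extracranial tumors and 19.2, 2.23 and 4.10 CPM in grafts, against 0, 0 and 0 CPM in healthy brains. With 0 counts in 3 brains, a floor of 3 counts over the group (0.00846 CPM) puts its mean at least 1006-fold higher in grafts, at least 197-fold higher in Myc tumors and at least 115-fold higher in extracranial tumors than in brain. These limits rest on single libraries. They were at least 374-fold without Syngeneic graft 1, at least 104-fold without Myc CNS tumor 2 and at least 62.6-fold without Extracranial tumor 1. With 1 brain left out they lay at 649 to 714-fold in grafts, 127 to 140-fold in Myc tumors and 74.0 to 81.4-fold in extracranial tumors. The SHH tumors held 4 reads in all. Timd4, a receptor for phosphatidylserine on apoptotic cells, had 2.22, 1.09 and 0.658 CPM in grafts, against 0.0238, 0.0194 and 0.0239 CPM in brains, and rose there (log2 fold change 5.75 ± 1.28, adjusted p = 0.00184). Its call in extracranial tumors was lost without Extracranial tumor 1, Healthy brain 2 or Healthy brain 3 (adjusted p = 0.0885, 0.0553 and 0.0532). Lyve1, a hyaluronan receptor of perivascular macrophages and of lymphatic vessels, was measured at 1.65, 0.118 and 0.453 CPM in SHH tumors, 15.5, 5.16, 4.04 and 0 CPM in Myc tumors, 34.9, 1.71, 2.54 and 1.43 CPM in extracranial tumors and 313, 10.1 and 65.6 CPM in grafts, against 7.67, 5.75 and 6.64 CPM in healthy brains. Brain lay within the range of the Myc and extracranial tumors, the grafts were the most spread, and none of the 4 comparisons passed.

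Per kilobase of exon length, which allows levels of different genes to be compared, Apoe led in SHH, Myc and extracranial tumors with group means of 587, 1122 and 1544 CPM per kb, and Lyz2 led in grafts with 2326 CPM per kb, ahead of Apoe with 1982 CPM per kb. Ctss followed Apoe and Lyz2 in grafts, Myc tumors and extracranial tumors, with 1099.9, 493 and 423 CPM per kb, and was second in SHH tumors with 114 CPM per kb. Some of these places changed with 1 library left out. Apoe led in grafts without Syngeneic graft 1, with 1977 CPM per kb against 1589 CPM per kb of Lyz2. Lyz2 led in extracranial tumors without Extracranial tumor 3, with 1576 CPM per kb against 1188 CPM per kb of Apoe. Lyz2 passed Ctss in SHH tumors without SHH CNS tumor 1. Tyrobp passed Ctss in extracranial tumors without any 1 of Extracranial tumors 1, 2 and 3. In brain Apoe led with 151 CPM per kb, followed by Spp1 with 78.0 and Tyrobp with 9.10 CPM per kb. The place of Spp1 rested on Healthy brain 1, without which Spp1 had 4.15 CPM per kb and was the fifth, behind Apoe (103 CPM per kb), Tyrobp, Ctss and Cd68.

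Between tumor groups, most calls were against SHH tumors. Compared with SHH tumors, 37 of the 40 genes were higher in grafts, 31 in extracranial tumors and 32 in Myc tumors, and 0 were lower. In these comparisons 20.4%, 18.6% and 19% of all genes were called higher, and 25.8%, 19.7% and 21.9% lower. The median log2 fold change of the 40 genes over SHH tumors was 4.51 in grafts, 3.58 in extracranial tumors and 2.86 in Myc tumors, and over all genes it was -0.14, 0.07 and 0.00. Plac8 had the largest difference of Myc from SHH tumors (log2 fold change 7.25 ± 1.59, adjusted p = 0.00283), followed by Vsig4, Fcgr4 (log2 fold change 5.26 ± 1.03, adjusted p = 0.00138) and Ly6c2. In extracranial tumors the largest were Ly6c2 (log2 fold change 7.66 ± 1.70, adjusted p = 0.00323) and Msr1 (log2 fold change 5.30 ± 0.81, adjusted p = 0.000292), and in grafts Marco, Vsig4, Ly6c2 (log2 fold change 8.16 ± 1.75, adjusted p = 0.00196) and Fcgr4 (log2 fold change 7.87 ± 1.17, adjusted p = 0.00018). Some of these log2 fold changes moved with 1 library left out. That of Plac8 in Myc tumors was 6.15 without Myc CNS tumor 3. That of Ly6c2 in extracranial tumors was 5.50 without Extracranial tumor 3, and in grafts 9.37 without SHH CNS tumor 3. That of Msr1 in extracranial tumors was 4.70 without Extracranial tumor 1. Marco and Vsig4 had 1 and 4 reads in the SHH tumors, so the size of their fitted change depends on the prior count.

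The genes that did not separate SHH from Myc tumors were Ly86, Marco, Clec7a, Trem2, Apoe, Gpnmb, Timd4 and Lyve1. Clec7a had 40.3, 15.4, 9.70 and 30.2 CPM in Myc tumors, against 17.03, 7.17 and 25.8 CPM in SHH tumors, which overlapped (log2 fold change 0.52 ± 0.69, adjusted p = 0.567). Trem2 had 63.5, 19.03, 31.95 and 26.9 CPM in Myc tumors, against 21.3, 17.02 and 15.2 CPM in SHH tumors (log2 fold change 0.98 ± 0.53, adjusted p = 0.152). In grafts Trem2, Gpnmb and Spp1 were the genes that did not pass against SHH tumors. Of the 31 extracranial calls against SHH tumors, those of Ctss, Plac8, Spp1 and Trem2 were lost with 1 library left out, Ctss without SHH CNS tumor 2 (adjusted p = 0.0501), Plac8 without SHH CNS tumor 1 or 2 (0.0659 and 0.0613), Spp1 without any 1 SHH tumor (0.0955 to 0.124) or Extracranial tumor 2 (0.198) and Trem2 without any 1 SHH tumor (0.0573 to 0.0849) or Extracranial tumor 1 (0.0977). Without Extracranial tumor 4 the count was 35. Of the 32 Myc calls, 25 remained with each library left out in turn, and those of Aif1, Csf1r, Irf8, Itgax, Ly6c2, Spp1 and Vsig4 did not. Without Myc CNS tumor 1, for instance, the adjusted p was 0.167 for Aif1, 0.1 for Itgax, 0.0577 for Vsig4 and 0.0538 for Csf1r. Of the 37 graft calls only that of Apoe was lost, in each of the 6 leave-outs (0.0531 to 0.155).

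Grafts and Myc tumors also differed. In 13 of the 40 genes the grafts were higher, in a comparison where 3.12% of all genes were called higher and 2.88% lower, and 0 of the 40 were lower. The genes were Irf8, Csf1r, Adgre1, Aif1, Cd53, Cd52, Cd84, Ly86, Mpeg1, Fcgr2b, Marco, Clec7a and Timd4. Cd84, a homophilic receptor of the SLAM family, had 128, 154 and 133 CPM in grafts, against 56.1, 26.3, 34.01 and 28.7 CPM in Myc tumors (log2 fold change 1.93 ± 0.33, adjusted p = 0.0115). Clec7a had 269, 469.97 and 241 CPM in grafts, against 40.3, 15.4, 9.70 and 30.2 CPM in Myc tumors (log2 fold change 3.77 ± 0.72, adjusted p = 0.0167). All 3 grafts lay above all 4 Myc tumors in 28 of the 40 genes, against 14.1% of all genes, and the reverse was seen for Spp1 alone, against 11.1% of all genes, with 51.99, 20.3 and 32.6 CPM in grafts and 607, 110.3, 518 and 896 CPM in Myc tumors (log2 fold change -3.93 ± 1.55, adjusted p = 0.131). None of the 13 calls remained under every leave-out. The count was 0 without Syngeneic graft 2, 2 without Syngeneic graft 1 or 3 or without Myc CNS tumor 2, 3 or 4, and 16 without Myc CNS tumor 1. It was 3 without Healthy brain 1 and SHH CNS tumor 1, which are outside the 2 groups and enter through the shared spread. With DESeq2 20 genes were higher and 1 lower, and with limma voom 31 were higher and 1 lower. The shares of all genes above are those of edgeR with all libraries. Those of DESeq2, limma voom and the leave-outs are not given here, so these counts cannot be set against them.

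Between extracranial and Myc tumors the test by edgeR called 0 of the 40 genes. In this comparison edgeR called 0% of all genes higher and 0.0186% lower. Of the 40, 9 had an unadjusted p under 0.05, DESeq2 called 1 and limma voom called 0. The shares of all genes for these last counts are not given here. The median log2 fold change was 0.52, with values from -2.51 for Plac8 to 2.47 for Ly6c2. Groups overlapped in all 40 genes, and the smallest adjusted p was that of Cd84 (0.165).

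Between grafts and extracranial tumors edgeR's test also called 0 of the 40 genes (22 at an unadjusted p under 0.05), where 2.16% of all genes were called higher and 2.62% lower. The smallest adjusted p was that of Clec7a, with 269, 469.97 and 241 CPM in grafts, against 138, 34.6, 49.02 and 11.2 CPM in extracranial tumors (log2 fold change 2.49 ± 0.69, adjusted p = 0.0534). All 3 grafts lay above all 4 extracranial tumors in 21 of the 40 genes, against 11.9% of all genes. DESeq2 called 15 of the 40 genes, 14 higher and 1 lower in grafts, and limma voom 20, all higher. The shares of all genes by these tools, at the unadjusted p and in the leave-outs below are not given here. The count also changed with 1 library. It was 15 without Extracranial tumor 1, the highest of its group in 29 of the 40 genes, and 2 without Extracranial tumor 4.

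Among single tumors, Extracranial tumor 4 had an order of its own among the 40 genes. It lay above the 3 other extracranial tumors in 6 genes, below all of them in 26 and between them in 8. The 6 were Spi1 (224 CPM), Csf1r (1102 CPM), Cd68 (895 CPM), Laptm5 (708 CPM), Tyrobp (534 CPM) and Gpnmb (60.8 CPM). The others of its group had at most 115, 957, 377, 591, 334 and 6.88 CPM of these genes. Among the 26 were 9 of the 14 core genes, 6 of the 7 Fc receptor and adaptor genes and all 3 effectors. Ly86, which pairs with the receptor RP105, had 5.64 CPM in Extracranial tumor 4, against 57.9 to 158 CPM in the 3 others. Aif1, encoding the actin-binding protein IBA1, had 9.79 CPM, against 47.1 to 119.9 CPM.

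Osteoclasts are bone-resorbing cells of the same lineage and depend on Csf1r too. Of the 5 osteoclast markers listed, 4 were highest in Extracranial tumor 4 among the extracranial tumors. It had 7396 CPM of Acp5, 8031 CPM of Ctsk, 303 CPM of Dcstamp and 358 CPM of Ocstamp, while the other 3 extracranial tumors had at most 414, 382, 13.9 and 14.3 CPM. The fifth, Calcr, had 4.86 CPM in Extracranial tumor 4, against up to 158 CPM in the others. Summed over the 5 genes, osteoclast markers came to between 35.2 and 16092.5 CPM in extracranial tumors, 71.7 and 141 CPM in grafts, 30.3 and 129 CPM in Myc tumors, 9.48 and 23.5 CPM in SHH tumors and 9.20 and 129 CPM in brains. Their part in the values of the 40 genes was not tested.

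**Figure D4:**
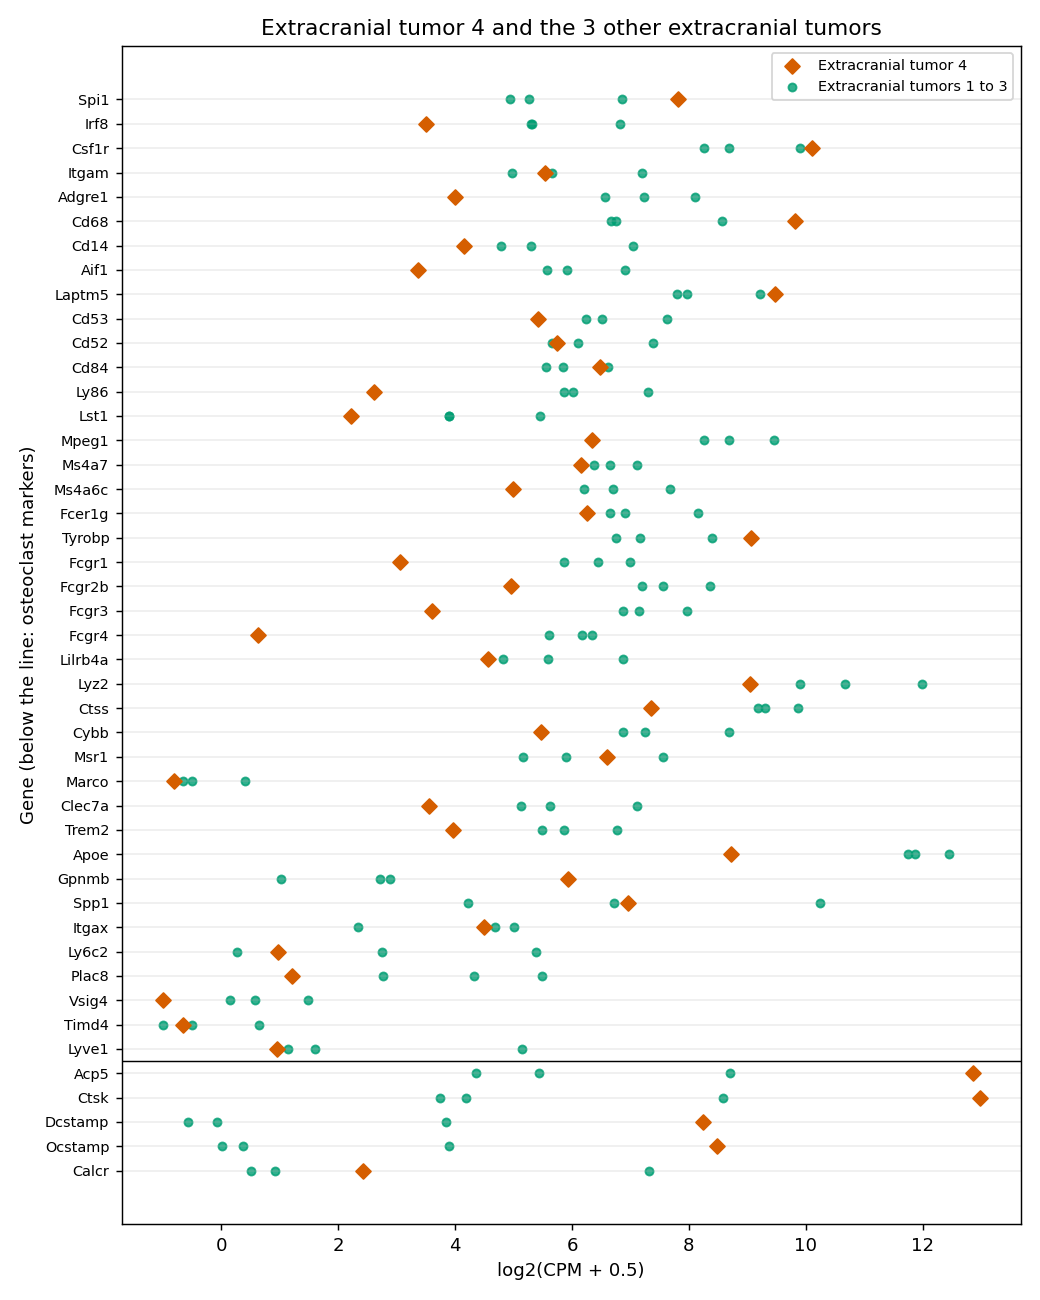
Levels of the 40 genes (above the line) and 5 osteoclast markers (below it) in the 4 extracranial tumors, as log2(CPM + 0.5). The diamond of Extracranial tumor 4 lies right of the 3 circles for Spi1, Csf1r, Cd68, Laptm5, Tyrobp, Gpnmb and 4 osteoclast markers, and left of them for 26 of the 40 genes.

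Myc CNS tumor 1 was the highest of its group in 32 of the 40 genes and the lowest in 0. The summed level of the 40 genes was 12767 CPM in Myc CNS tumor 1 and 5031 to 6079.97 CPM in the other Myc tumors. Extracranial tumor 1 was the highest of its group in 29 genes and had a sum of 15830 CPM, against 5581 to 10019 CPM in the other 3. The sums were 16557 to 20558 CPM in grafts and 1399 to 2564 CPM in SHH tumors, against 306 to 1092 CPM in brains. Apoe was a large part of many sums. Without it they were 12076, 6353, 4430 and 5158 CPM in Extracranial tumors 1 to 4. In SHH tumors they were then 738, 706 and 1002 CPM, against 561, 115 and 124 CPM in Healthy brains 1 to 3. Over all 14 tumors, the highest value fell in a graft for 27 of the 40 genes, in Extracranial tumor 4 for 5, in Extracranial tumor 1 for 4, and in Extracranial tumor 3, Extracranial tumor 2 and Myc CNS tumor 3 for the rest. The lowest fell in an SHH tumor for 35.

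Ratios between members ask whether they moved in proportion. For 8 ratios of log2(CPM + 0.5), the share of the sum of squares that lies between the 4 tumor groups was tested by an exact permutation test over the 14 tumors (4204200 assignments, one-sided for a large share), adjusted over the 8. None passed, with adjusted p from 0.245 to 0.847. The ratio of Trem2 to Csf1r was -2.33 ± 0.23 in SHH tumors, -3.03 ± 0.44 in Myc tumors, -3.72 ± 1.62 in extracranial tumors and -4.50 ± 0.31 in grafts on the log2 scale (SD), against -3.11, -3.22 and -3.04 in the 3 brains. Grafts thus had the least Trem2 for their Csf1r apart from Extracranial tumor 4 (-6.14). The share between groups was 0.477 (exact permutation adjusted p = 0.245), and without Extracranial tumor 4 it was 0.889 (exact permutation adjusted p = 0.00503), the one ratio whose call changed with a library. Fcgr4 to Fcgr2b, an activating against the inhibitory receptor, was -0.94 ± 0.31 in grafts, -1.37 ± 0.37 in Myc tumors, -2.33 ± 1.45 in extracranial tumors and -2.90 ± 0.83 in SHH tumors (share 0.478, exact permutation adjusted p = 0.245). Clec7a to Csf1r was -1.68 ± 0.70 in grafts, -3.64 ± 0.73 in Myc tumors, -3.88 ± 1.83 in extracranial tumors and -2.59 ± 0.83 in SHH tumors (share 0.428, exact permutation adjusted p = 0.245). Ly6c2 to Adgre1, a monocyte gene over a gene of mature macrophages, had the smallest share, 0.0766 (exact permutation adjusted p = 0.847). In SHH tumors Ly6c2 lay between 0.0235 and 0.113 CPM, below the 0.5 CPM added, so their ratio was set mostly by the added value and Adgre1. This share therefore cannot tell whether Ly6c2 and Adgre1 moved in proportion. The ratios of Marco and Vsig4 have the same limit in libraries with few reads.

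**Figure D5:**
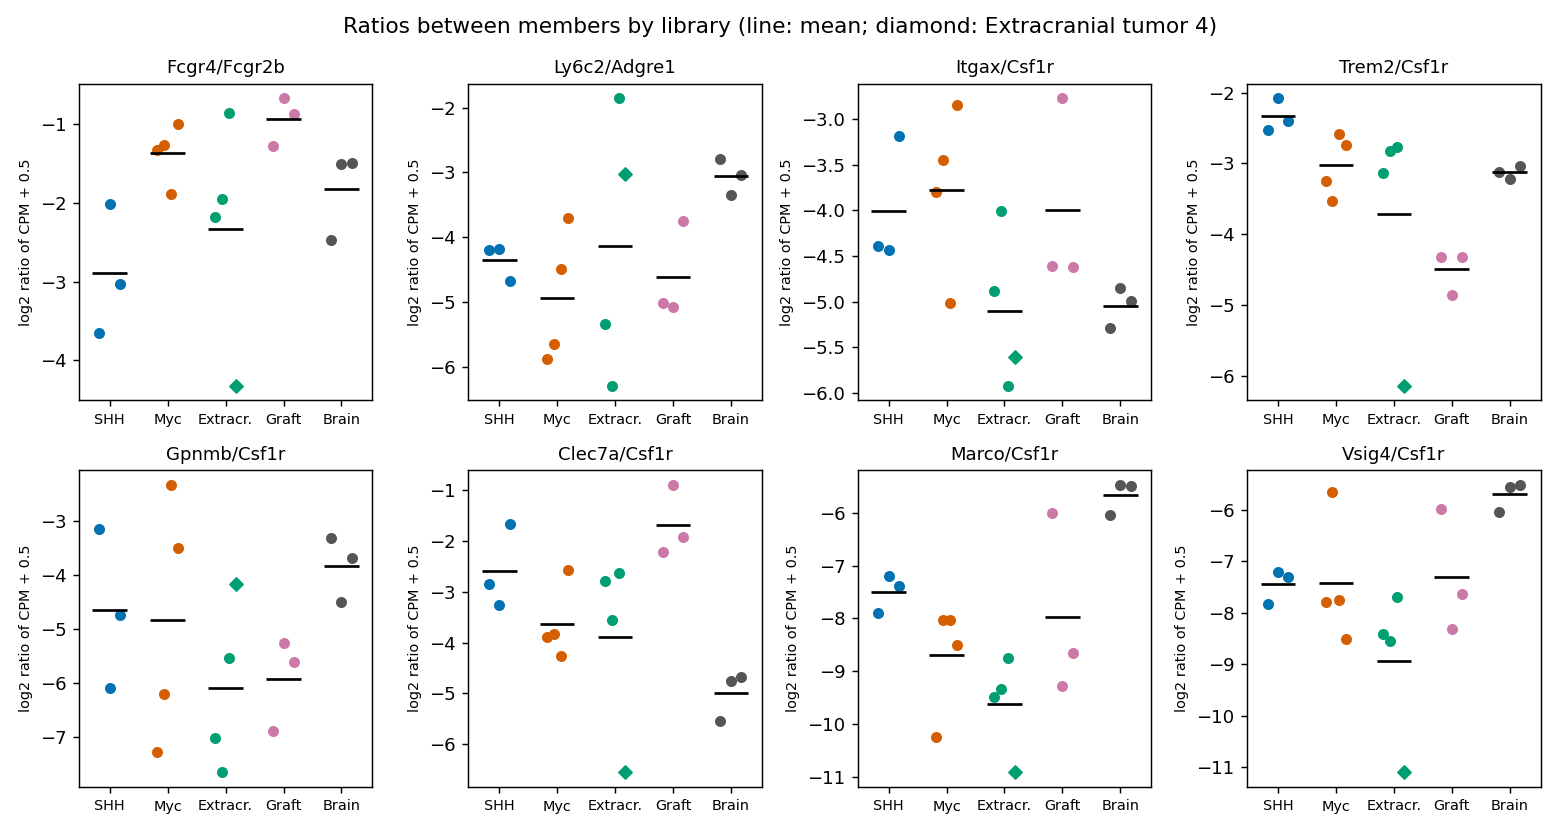
The 8 log2 ratios between members in each library, with group means as lines and Extracranial tumor 4 as a diamond. Trem2 to Csf1r runs lower from SHH tumors (-2.33) to grafts (-4.50) with Extracranial tumor 4 at -6.14; in the panels of Marco, Vsig4 and Ly6c2 the low libraries are set by the 0.5 CPM added.

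Genes of the pathways around the 40 genes were counted in the same comparisons. Their calls with 1 library left out are not given here, nor are those of the cell markers further below. Among the 40 genes, single leave-outs cost 17 of the 18 calls in SHH tumors over brain. In grafts against Myc tumors they cost 13 of 13. Over brain, 25.3% of all genes were called higher in Myc tumors, 26.1% in extracranial tumors, 24.9% in grafts and 2.44% in SHH tumors. Of 13 genes of Fc receptor and ITAM signalling, 13 rose in Myc tumors, 13 in extracranial tumors, 13 in grafts and 6 in SHH tumors, over brain. Ptpn6, the phosphatase SHP-1, rose by 6.50 ± 0.53 log2 units (adjusted p = 1.63e-06) in grafts and 2.16 ± 0.44 (adjusted p = 0.0168) in SHH tumors. Of 12 further transcription factors of macrophages, 9 rose in Myc tumors, 11 in extracranial tumors, 11 in grafts and 2 in SHH tumors, Cebpa by 1.93 ± 0.22 log2 units (adjusted p = 0.00153) and Irf5 by 1.95 ± 0.50 log2 units (adjusted p = 0.0426) in the last. Grafts were higher than Myc tumors in Nr1h3, encoding the oxysterol receptor LXR-alpha (log2 fold change 3.44 ± 0.64, adjusted p = 0.0149), and lower in Klf4 (log2 fold change -2.66 ± 0.62, adjusted p = 0.0289) and Nr4a1 (log2 fold change -2.29 ± 0.57, adjusted p = 0.0348).

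Of 10 tested ligands and recruitment genes, 7 rose in Myc tumors, 7 in extracranial tumors, 8 in grafts and 1 in SHH tumors, and 1 fell in Myc tumors and 1 in grafts. Of all genes, 25.3%, 26.1%, 24.9% and 2.44% were called higher in these groups. In Myc tumors 26.8% of all genes were called lower, and in grafts 30.4%. Ccl2, which draws monocytes through the receptor encoded by Ccr2, was measured at 0.927, 0.635 and 0.996 CPM in SHH tumors, 65.1, 8.60, 102 and 325 CPM in Myc tumors, 173, 239, 31.2 and 225 CPM in extracranial tumors and 103, 83.2 and 36.5 CPM in grafts, against 0.437, 0.146 and 0.0716 CPM in healthy brains. It rose by 8.40 ± 1.32 log2 units (adjusted p = 0.000147) in grafts, 9.56 ± 1.37 (adjusted p = 7.92e-05) in extracranial tumors and 9.15 ± 1.34 (adjusted p = 0.000105) in Myc tumors, and not by the test in SHH tumors (log2 fold change 1.96 ± 1.03, adjusted p = 0.287), although all tumors lay above all brains. Ccr2 itself rose by 9.92 ± 1.55 log2 units (adjusted p = 0.000147) in grafts.

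Markers of the kinds of macrophage were counted over brain and between the tumor groups. Of 6 markers of border and other resident macrophages, 5 rose in grafts, 4 in extracranial tumors, 3 in Myc tumors and 0 in SHH tumors, over brain. Of all genes, 24.9%, 26.1%, 25.3% and 2.44% were called higher there. Over SHH tumors, 6 were higher in grafts, 5 in extracranial tumors and 4 in Myc tumors, where 20.4%, 18.6% and 19% of all genes were. Between grafts, extracranial tumors and Myc tumors edgeR called 0 of the 6, and at most 3.12% of all genes higher and 2.88% lower. At an unadjusted p under 0.05 there were 3 in grafts against Myc tumors, 1 in grafts against extracranial tumors and 0 in extracranial against Myc tumors. DESeq2 called 3, 0 and 0 in these comparisons, and limma voom 3, 1 and 0. Mrc1, the mannose receptor, was measured at 5.64, 2.04 and 4.37 CPM in SHH tumors, 300.2, 117, 211 and 58.3 CPM in Myc tumors, 548, 176, 212 and 9.99 CPM in extracranial tumors and 1066, 713 and 721 CPM in grafts, against 24.3, 25.97 and 17.7 CPM in healthy brains. Its SHH tumors lay below all brains (log2 fold change -2.49 ± 0.91, adjusted p = 0.129) and its grafts above all other libraries. Of 10 microglia markers, 6 rose and 1 fell in grafts, 6 rose and 2 fell in extracranial tumors, 6 rose and 3 fell in Myc tumors, and 2 rose and 0 fell in SHH tumors. Of all genes, 24.9% were called higher and 30.4% lower in grafts, and 26.1% and 26.1% in extracranial tumors. In Myc tumors these shares were 25.3% and 26.8%, and in SHH tumors 2.44% and 1.94%. Olfml3 rose in each group, by 2.95 ± 0.50 log2 units (adjusted p = 0.00909) in SHH tumors, and Sall1, which neural progenitors also express, fell in extracranial tumors (log2 fold change -9.57 ± 1.09, adjusted p = 1.49e-05). Sall1 was also the 1 microglia marker that differed between grafts and extracranial tumors, and it was higher in grafts (log2 fold change 7.31 ± 1.03, adjusted p = 0.00505). Of the 10, edgeR called 0 in extracranial against Myc tumors and 0 in grafts against Myc tumors, with 2 and 1 at an unadjusted p under 0.05. DESeq2 called 1 and 1 there, and limma voom 0 and 2. The summed level of the 10 microglia markers was between 687 and 984 CPM in grafts, between 745 and 1476 CPM in extracranial tumors, between 555 and 1346 CPM in Myc tumors and between 395 and 438 CPM in SHH tumors, against 106 to 134 CPM in brains. The 6 resident macrophage markers summed to between 930.4 and 2334 CPM in grafts, between 23.04 and 1368 CPM in extracranial tumors, between 70.1 and 673 CPM in Myc tumors and between 4.07 and 12.1 CPM in SHH tumors, against 42.7 to 56.4 CPM in brains.

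Some of the 40 genes are also used by other cells, whose markers were counted beside them. The 8 neutrophil markers summed to between 14.8 and 178 CPM in grafts, between 0.884 and 51.04 CPM in extracranial tumors, between 17.9 and 88.4 CPM in Myc tumors and between 0.103 and 1.26 CPM in SHH tumors, against 1.49 to 8.38 CPM in brains. The highest value was mostly 1 gene in 1 library. Cxcr2, a chemokine receptor, had 152 CPM in Syngeneic graft 3, where the other 7 markers summed to 25.7 CPM. Of these 8, 5 rose in Myc tumors, 1 in extracranial tumors and 2 in grafts, over brain. There 25.3%, 26.1% and 24.9% of all genes were called higher, so the counts in extracranial tumors and grafts were near or below that share. The 7 dendritic cell markers summed to between 32.5 and 53.9 CPM in grafts, between 9.01 and 160.6 CPM in extracranial tumors, between 3.96 and 14.2 CPM in Myc tumors and between 11.4 and 29.8 CPM in SHH tumors, against 27.2 to 34.04 CPM in brains. The brain sums were mostly 1 gene, Zbtb46 (24.3, 30.3 and 28.9 CPM), and the other 6 markers summed to 2.85, 3.73 and 3.75 CPM. In grafts the highest was Clec9a, and the other 6 summed to 27.3, 21.5 and 21.7 CPM. SHH CNS tumor 1 had 18.7 CPM of Flt3 and 11.1 CPM of the other 6. The highest sum was that of Extracranial tumor 1, with 139 CPM of Ccr7, a receptor of migrating dendritic cells and lymphocytes, and 22.0 CPM of the other 6 markers. Over brain, 5 of the 7 rose and 1 fell in grafts, where 24.9% of all genes were called higher and 30.4% lower. In extracranial tumors 5 rose and 1 fell (26.1% and 26.1% of all genes), and in Myc tumors 2 rose and 1 fell (25.3% and 26.8%). In SHH tumors 0 rose and 0 fell (2.44% and 1.94%). The 5 mast cell markers, which share Fcer1g with macrophages, stayed at or below 4.24 CPM in sum in every library, and Cpa3 was at 0 in 6 of the 14 tumors. The part of these cells in the levels of Lyz2, Itgam, Itgax, Fcer1g and the other shared genes was not tested.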

How the data were processed

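Per the labels' protocols, RNA came from miRNeasy extraction with a DNase step, and libraries were of the TruSeq Stranded mRNA kind. STAR 2.5.3a and the build mm10 are named, per the submitters' processing notes; the counter and its strand setting are not given in the sources used here. The deposited files hold whole-number counts per gene for 1 library each, with no normalization by the authors. Gene IDs were matched to GENCODE M21 (50376 of 50600 without the version).

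All 17 libraries were fitted together with edgeR 4.0.16 (R 4.3.3), using TMM scaling, the default filterByExpr (minimum count of 10, which kept 99.96% of counts), a robust quasi-likelihood fit and Benjamini-Hochberg adjustment in each of 10 comparisons. CPM used the TMM-scaled library sizes. The 8 ratios used an added 0.5 CPM and an exact permutation test. Alternatives were DESeq2 1.42.0, limma 3.58.1 (voom with quality weights), size factors, 2 other filters, the compared groups alone, a replicate block, other added values for ratios and each library left out. The scripts were tested on simulated data, with Myc against SHH tumors compared. Of 50 genes raised 2-fold 1 was called, and of 50 raised 4-fold 18 were called. Of those lowered to 0.5 and to 0.25 of their level, 0 and 19 of 50 were called. Only these genes were changed among the 21494 simulated, and only in Myc tumors. In the measured data 19% of all genes were called higher and 21.9% lower in Myc against SHH tumors, so these rates need not hold there. The comparisons in which 0 of the 40 genes were called were not simulated. A count of 0 called genes does not show that 2 groups were alike. The 40 genes and the other gene lists were chosen with earlier results of these data known. A further gene list is not reported here. Other genes are named where they are among the 4 smallest adjusted p-values of their list in a comparison or define a cell type. Groups and replicate numbers are those of the labels. The series describes separate tumors and biological replicates of brain, but not which animals they came from, so p-values measure the spread between these samples. Replicates of a group differed by more than sampling noise (chi-square per gene 65.3 to 885). The SEs and SDs include this spread between libraries, while the floors cover counting error only.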

Additional observations from a re-analysis of the deposited data

Results flagged for a closer look

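Of 80 sets of values (40 genes in Myc tumors and in extracranial tumors, the groups with 4 libraries), 11 held a library far from the others by Dixon's test on CPM. Its limit is passed by chance in about 1 in 20 single sets of normally distributed values. The 40 genes come from the same tumors and are not independent, so 11 of 80 cannot be set against that rate. In Myc CNS tumor 1 these were Csf1r (606 CPM), Cd52 (129 CPM), Fcgr2b (259.6 CPM), Lilrb4a (71.4 CPM) and Lyz2 (2370.04 CPM), each above the other 3 Myc tumors. In Extracranial tumor 1 they were Itgam (147 CPM), Cd52 (168 CPM) and Lyve1 (34.9 CPM), in Extracranial tumor 2 Spp1 (1214 CPM), in Extracranial tumor 3 Ly6c2 (41.3 CPM) and in Extracranial tumor 4 Gpnmb (60.8 CPM).

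For 13 pairs of tumor groups and genes, the changes over brain had opposite signs and the difference between the 2 tumor groups passed the edgeR test. These pairs hold 6 genes, and 0 of the 6 passed in SHH tumors over brain, so the sign there is that of an estimate that did not pass. It changed with 1 library left out for 5 of the 6. The log2 fold change in SHH tumors over brain was -2.83 for Spp1, -0.90 for Plac8 and -0.34 for Ly6c2, and without Healthy brain 1 it was 1.40, 1.75 and 0.77. It was -0.09 for Lst1 (0.17 without Healthy brain 3) and -0.70 for Marco, of which the SHH tumors held 1 read (0.51 without Healthy brain 2 and 0.07 without SHH CNS tumor 3). That of Lyve1 was -3.19 and negative with each library left out. Grafts exceeded SHH tumors in this way by log2 differences of 5.63 for Lst1, 9.72 for Marco, 8.16 for Ly6c2, 6.91 for Plac8 and 7.46 for Lyve1. Extracranial tumors exceeded SHH tumors by 4.30 for Lst1, 4.34 for Spp1, 7.66 for Ly6c2 and 4.74 for Plac8 on the log2 scale. Myc tumors exceeded SHH tumors by 3.23 for Lst1, 4.88 for Spp1, 5.19 for Ly6c2 and 7.25 for Plac8 on the log2 scale.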

How the results depend on the processing

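Of 241 fold changes of the 40 genes that passed in any comparison, 51 missed the threshold under at least 1 alternative and 0 changed sign, and 89 moved by more than 1.5 times with 1 library left out. With 1 library left out, the number of genes called lay between 1 and 11 for SHH tumors against brain, 34 and 36 for Myc tumors, 34 and 38 for extracranial tumors, and 37 and 38 for grafts. It ran from 25 to 31 in Myc against SHH tumors, 27 to 35 in extracranial against SHH tumors, 36 to 36 in grafts against SHH tumors, 0 to 16 in grafts against Myc tumors and 0 to 15 in grafts against extracranial tumors. With both Healthy brain 1 and SHH CNS tumor 1 left out, 9 genes were called in SHH tumors against brain and 3 in grafts against Myc tumors. DESeq2 called 1 gene in extracranial against Myc tumors, 21 in grafts against Myc tumors and 15 in grafts against extracranial tumors. limma voom called 32 and 20 in the comparisons of grafts with Myc and extracranial tumors. The shares of all genes called under the leave-outs and the other alternatives are not given here. The share of the Trem2 to Csf1r ratio ran from 0.407 to 0.889 with 1 library left out (0.889 without Extracranial tumor 4), and the calls of the other 7 ratios did not change under any alternative run. With the replicate number as a block, 6 genes were called in grafts against Myc tumors and 2 in grafts against extracranial tumors, and the call of Gpnmb in extracranial tumors against brain was lost (log2 fold change 2.02, adjusted p = 0.180). The labels state no pairing by number. Same-numbered libraries had correlations of -0.172 to 0.160, with 2 of 31 pairs over 0.1, and whether the numbers stand for a shared animal or run cannot be told from these values. Of 17 libraries, 7 were closest to a library with their own number. The cause of these differences was not tested. Keeping every gene with a count moved the median log2 fold change of all genes by more than 0.1 in the comparisons of Myc tumors, extracranial tumors and grafts with brain (-0.17, -0.19 and -0.23) and of grafts with SHH, Myc and extracranial tumors (0.14, 0.11 and 0.13).

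With 3 or 4 libraries a group, single libraries decide many calls, and genes with few reads, such as Marco, Vsig4, Timd4 and Ly6c2, have fold changes that depend on the prior count. The depth behind a value ran from 18685672 to 114338058 counts, so the limit of detection differs between libraries.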

Other observations

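Over brain, edgeR called 24.9% of all genes higher in grafts, 26.1% in extracranial tumors, 25.3% in Myc tumors and 2.44% in SHH tumors. Of 7 T cell markers, 7 rose in grafts, 7 in extracranial tumors, 5 in Myc tumors and 0 in SHH tumors over brain by edgeR's test (in SHH tumors 2 at an unadjusted p under 0.05, and 1 each by DESeq2 and limma voom). Their sum was 73.3 to 166 CPM in grafts, 9.40 to 50.4 CPM in extracranial tumors, 2.09 to 14.9 CPM in Myc tumors and 1.13 to 2.63 CPM in SHH tumors, against 0.524 to 1.01 CPM in brains. Cd4, a coreceptor of helper T cells that some macrophages also carry, rose by 6.89 ± 0.70 log2 units (adjusted p = 6.15e-06) in grafts. Of 6 endothelial markers, 4 rose in grafts, 1 in extracranial tumors, 1 in Myc tumors and 0 in SHH tumors over brain (in SHH tumors 2 at an unadjusted p under 0.05, 1 by DESeq2 and 4 by limma voom). In extracranial and Myc tumors this was below the share of all genes called higher. All 6 were higher in grafts than in SHH tumors, where 20.4% of all genes were called higher. Pecam1, an adhesion molecule of endothelium, rose in grafts (log2 fold change 1.97 ± 0.69, adjusted p = 0.0248), as did Cdh5, the endothelial cadherin (log2 fold change 1.77 ± 0.51, adjusted p = 0.00883), and Stab2, a scavenger receptor of sinusoids (log2 fold change 4.06 ± 1.20, adjusted p = 0.0107). Stab1, a scavenger receptor that macrophages share, rose in Myc tumors (log2 fold change 3.36 ± 0.73, adjusted p = 0.00183), extracranial tumors (log2 fold change 3.66 ± 0.74, adjusted p = 0.00111) and grafts (log2 fold change 4.88 ± 0.81, adjusted p = 0.000223). Skeletal muscle markers summed to 4.61 to 236 CPM in brains, with the highest value in Healthy brain 1.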
